A study of Homo sapiens with 8 samples.

Results

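LDHA, LDHB, SLC16A1, SLC16A3, BSG, CA9 and CA12 encode the enzymes, carriers and surface proteins by which a glycolytic cell makes lactate, exports it and handles the acid that leaves with it. These 7 genes were picked by symbol for their function, with earlier results of these data known, from the 23193 genes with a TSS and a gene body region. All 7 passed the filter on low counts in both regions, CA9 over its gene body through the 2 WT hypoxia libraries only. PRO-seq, which sequences the RNA that engaged RNA polymerase II (RNAPII) extends in a nuclear run-on and so counts active polymerases, was carried out on HCT116, an established human colorectal carcinoma line. There were 2 libraries in each of 4 groups, all with DMSO vehicle: WT cells in normoxia, WT cells at 1% O2 for 90 min, and HIF1A-/- cells in the same 2 states. The HIF1A-/- line was derived from HCT116 by homologous recombination at HIF1A and is the only knockout line in the series, so the loss of HIF1A and other differences between the lines cannot be told apart.

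In background terms, lactate dehydrogenase interconverts pyruvate and lactate and regenerates the NAD+ that glycolysis needs. LDHA encodes the subunit that predominates where lactate is produced and LDHB the subunit that predominates where it is oxidised. Lactate crosses the membrane together with a proton through monocarboxylate transporters, of which SLC16A3 (MCT4) is known as the exporter of glycolytic cells and SLC16A1 (MCT1) works in both directions, and both need basigin, the product of BSG, to reach the cell surface. CA9 and CA12 are membrane carbonic anhydrases that hydrate CO2 outside the cell. HIF1A is the oxygen-labile subunit of a transcription factor that binds the core ACGTG or GCGTG of the hypoxia response element (HRE), and LDHA, SLC16A3, CA9 and CA12 are textbook members of the hypoxic programme.

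The start-site sequences below are shown because they set the HRE cores of each gene beside its response. They run from 250 bp before to 50 bp after a RefSeq start (GRCh38.p14, 300 bp each, 5′ to 3′ on the gene's strand), in lower case with every ACGTG or GCGTG core, on either strand, in capitals (a core on the other strand reads CACGT or CACGC, and CACGTG is a core on both). RefSeq starts were at hand for 6 of the 7 genes, 12 in all, and that of SLC16A1 is not shown. Of the 12, those not printed are LDHA start number 2 (1 core), BSG start number 1 (0 cores) and SLC16A3 starts number 1, 3 and 4 (0, 0 and 3 cores).
LDHA, start number 1, chr11:18394313-18394612, plus strand: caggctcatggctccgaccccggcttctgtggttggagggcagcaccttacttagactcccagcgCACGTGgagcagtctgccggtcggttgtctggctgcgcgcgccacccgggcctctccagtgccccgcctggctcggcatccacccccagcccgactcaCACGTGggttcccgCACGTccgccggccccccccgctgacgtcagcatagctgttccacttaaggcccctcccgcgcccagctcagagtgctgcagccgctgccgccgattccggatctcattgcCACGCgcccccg
LDHB, chr12:21657793-21658092, minus strand: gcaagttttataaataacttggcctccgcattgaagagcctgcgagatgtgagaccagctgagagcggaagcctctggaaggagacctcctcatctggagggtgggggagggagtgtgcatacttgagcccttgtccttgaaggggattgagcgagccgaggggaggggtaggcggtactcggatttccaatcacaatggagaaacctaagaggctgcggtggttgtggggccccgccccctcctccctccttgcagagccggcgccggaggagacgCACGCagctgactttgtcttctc
SLC16A3, start number 2, chr17:82228792-82229091, plus strand: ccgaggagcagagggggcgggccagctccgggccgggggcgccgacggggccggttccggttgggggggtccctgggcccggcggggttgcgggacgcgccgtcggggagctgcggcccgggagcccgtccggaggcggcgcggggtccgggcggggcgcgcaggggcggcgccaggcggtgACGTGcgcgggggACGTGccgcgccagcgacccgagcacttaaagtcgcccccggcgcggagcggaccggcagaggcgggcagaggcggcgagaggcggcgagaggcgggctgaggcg
SLC16A3, start number 5, chr17:82235524-82235823, plus strand: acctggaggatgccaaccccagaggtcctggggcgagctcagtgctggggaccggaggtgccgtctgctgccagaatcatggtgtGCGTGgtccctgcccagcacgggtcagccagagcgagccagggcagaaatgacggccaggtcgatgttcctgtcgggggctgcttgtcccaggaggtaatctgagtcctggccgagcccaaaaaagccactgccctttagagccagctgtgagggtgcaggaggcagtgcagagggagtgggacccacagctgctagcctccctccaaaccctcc
BSG, start number 2, chr19:572346-572645, plus strand: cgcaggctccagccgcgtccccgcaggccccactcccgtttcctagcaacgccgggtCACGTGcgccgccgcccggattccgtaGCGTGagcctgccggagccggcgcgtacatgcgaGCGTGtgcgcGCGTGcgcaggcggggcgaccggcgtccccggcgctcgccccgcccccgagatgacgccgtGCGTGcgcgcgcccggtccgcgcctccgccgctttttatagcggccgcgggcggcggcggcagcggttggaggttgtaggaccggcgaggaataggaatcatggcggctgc
CA9, chr9:35673678-35673977, plus strand: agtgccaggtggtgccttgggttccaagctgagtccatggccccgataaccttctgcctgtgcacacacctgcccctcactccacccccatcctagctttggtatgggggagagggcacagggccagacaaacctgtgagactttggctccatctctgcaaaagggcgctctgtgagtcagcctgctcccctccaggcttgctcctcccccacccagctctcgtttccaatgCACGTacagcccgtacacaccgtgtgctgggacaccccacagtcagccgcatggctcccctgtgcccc
CA12, chr15:63381797-63382096, minus strand: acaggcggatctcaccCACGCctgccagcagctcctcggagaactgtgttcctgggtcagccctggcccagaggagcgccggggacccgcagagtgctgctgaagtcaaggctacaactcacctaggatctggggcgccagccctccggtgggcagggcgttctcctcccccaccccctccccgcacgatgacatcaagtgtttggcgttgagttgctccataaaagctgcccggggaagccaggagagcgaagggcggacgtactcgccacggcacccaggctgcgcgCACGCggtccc
The LDHA sequence held 5 ACGTG cores, counted over both strands, and 1 GCGTG core. The ACGTG cores lay at 3 positions, and 2 of these were CACGTG palindromes. The single core of the LDHB sequence was a GCGTG. The BSG sequence, of a gene that was not called for hypoxia in any fit below, held 6 cores. CA9 had 1 ACGTG core, whose first base lay at -18, and CA12 had 2 GCGTG cores. The counted TSS of CA12 lay at -320 bp from its printed start, outside the printed window. Such short cores are common: ACGTG was found in 21.4% and GCGTG in 36.5% of the 35116 RefSeq promoters of this length, and CACGTG in 7.3%, so that 48.4% held at least 1 of the 2 cores. The matches are a description of the letters in these windows, and HIF1A binding was not analysed here.

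SLC16A3 has 5 RefSeq starts, and the region that was counted belongs to the last of them. Its counted TSS lay -1 bp from start number 5 and 6731 bp downstream of start number 2, whose promoter carries the pair of ACGTG cores. The counted SLC16A3 gene body (GRCh37 chr17:80194650-80197375, plus strand) therefore covers 24.6% of the 11065 bp between the first start and the gene end, and its TSS values do not describe polymerase at the upstream promoters. For LDHA, LDHB, BSG, CA9 and CA12 the counted body covers 82.2% to 98.9% of that span. LDHA start number 2 (GRCh37 chr11:18417898) lies inside the counted LDHA body (chr11:18416936-18429765). Polymerase near that start is thus counted as body, and the LDHA TSS values do not describe it. The counted bodies take in exons and introns alike.

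Levels per length set the 7 genes far apart. In WT normoxia the gene body level was 17.8 ± 2.08 RPKM (reads per kb per 1e6 gene body reads, mean ± SD, n = 2) for SLC16A3, 12.2 ± 0.138 for LDHA, 9.84 ± 0.103 for LDHB and 6.79 ± 0.441 for BSG. SLC16A1 was at 2.40 ± 0.0720 RPKM, CA12 at 0.120 ± 0.0155 and CA9 at 0.0420 ± 0.0156. No neighbours in this order overlapped between libraries. Among the 16686 gene bodies tested, SLC16A3, LDHA, LDHB and BSG stood at the 98.4, 97.2, 96.1 and 92.9 percentile, SLC16A1 at the 70.5 percentile, and CA12 and CA9 at the 15.8 and 9.77 percentile. In the hypoxic WT libraries LDHA stood first, at 39.6 ± 3.71 RPKM against 25.7 ± 3.89 for SLC16A3, and CA12 and CA9 stood close together at 0.210 ± 0.0151 and 0.192 ± 0.00291 RPKM. In HIF1A-/- cells the libraries of LDHB and BSG overlapped in normoxia, around means of 8.22 and 7.43 RPKM, and in hypoxia as well.

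**Figure D1:**
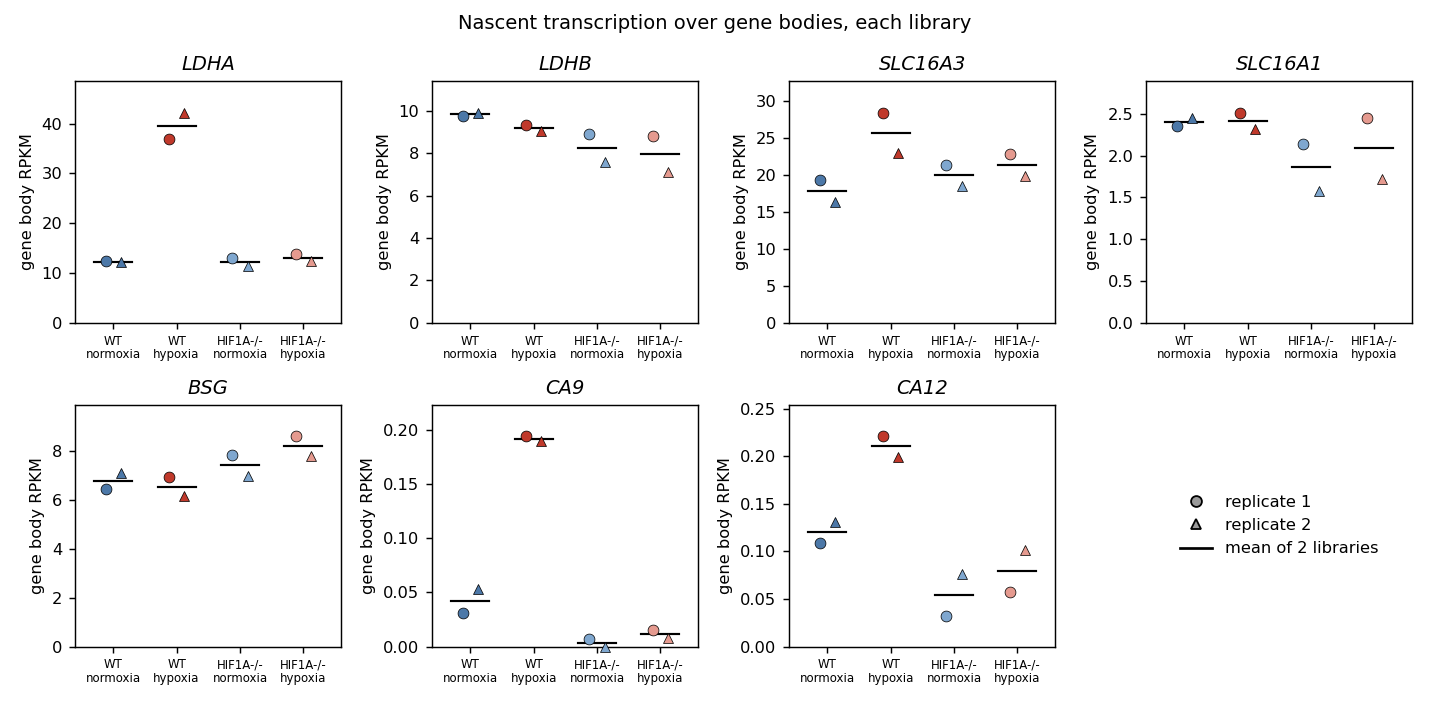
Gene body level in RPKM (vertical axis, linear from 0, a scale of its own in each panel) in each of the 8 libraries, with circles for replicate 1, triangles for replicate 2 and a bar for the mean of the 2. LDHA in the WT hypoxia libraries sits at 36.9 and 42.2 RPKM against 11.5 to 13.9 in the other 6, whereas LDHB, SLC16A1 and BSG form no such step.

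Within 90 min of hypoxia, transcription of LDHA rose 3.16-fold in WT cells and its paralog LDHB was not called in either direction. In edgeR's quasi-likelihood fit of 16686 gene bodies, LDHA was the only one of the 7 genes past an FDR of 10%, and 0.431% of all bodies were. When replicates of the same number were treated as pairs, SLC16A3 was also called higher, with 5.51% of all bodies called. CA9 passed the filter only through the group in which it is high, so its calls involving WT hypoxia are not counted as support. SLC16A1, BSG and LDHB were called in neither fit, and CA12 was not called although both of its hypoxia libraries lay above both normoxia libraries. Markers of other cell types, 6 in all and 3 of them tested, moved in the same direction, with a summed level of 37.4 and 49.99 CPM in WT normoxia and 53.1 and 79.4 CPM in WT hypoxia. That sum in HIF1A-/- cells was 27.2 and 52.3 CPM in normoxia and 37.5 and 67.0 CPM in hypoxia. The 3 tested, COL1A1, COL3A1 and VWF, had a median WT change of 0.58 (log2), beside -0.02 over all bodies, and VWF alone was called, with pairing (0.63, adjusted p = 0.0639). The part of these markers in the changes was not tested. The study counts COL1A1 among its acute response genes, those raised in hypoxic HCT116 cells by both PRO-seq and RNA-seq.

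LDHA (GRCh37 chr11:18416936-18429765, plus strand) had 158 and 156 gene body CPM (counts per 1e6 gene body reads) in WT normoxia and 474 and 541 CPM in WT hypoxia. In HIF1A-/- cells it had 168 and 147 CPM in normoxia and 178 and 158 CPM in hypoxia. The WT hypoxia libraries thus stood apart from the other 6, which overlapped. In bulk cells, a change in the share of transcribing cells and a change in polymerases per cell cannot be told apart. The log2 fold change in WT cells was 1.66 ± 0.155 (SE, adjusted p = 0.00761), and that in HIF1A-/- cells was 0.05 ± 0.152 (adjusted p = 1). None of the 7 genes was called for hypoxia in HIF1A-/- cells, where 0% of all bodies were called without pairing and 0.036% with it. The difference between these responses was 1.61 ± 0.216 on the log2 scale, with an adjusted p of 0.119 without the pairing and 0.0101 with it. It was also called with DESeq2 (adjusted p = 9.97e-08). The share of all bodies called for this difference was 0.0539% without pairing, 0.384% with it and 0.408% with DESeq2. In hypoxia LDHA was lower in HIF1A-/- than in WT cells, at 0.329 times its WT level (SE of the log2 change 0.155, adjusted p = 0.00245), whereas in normoxia the genotypes differed by 0.01 ± 0.152 (adjusted p = 0.994). The WT call was lost without WT normoxia replicate 1 (1.69, adjusted p = 0.19) or replicate 2 (1.63, adjusted p = 0.179), where the fold change hardly moved.

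LDHB (GRCh37 chr12:21788275-21809788, minus strand) had 210 and 213 CPM in WT normoxia against 200 and 194 CPM in WT hypoxia. In HIF1A-/- cells its levels were 191 and 163 CPM in normoxia and 190 and 153 CPM in hypoxia. The WT difference was -0.13 ± 0.172 on the log2 scale (edgeR adjusted p = 0.900). The ratio of the paralogs was highest in WT hypoxia. The LDHA to LDHB ratio of RPKM values was 3.96 and 4.67 in the WT hypoxia libraries and 1.26 and 1.23 in WT normoxia. In HIF1A-/- cells it was 1.47 and 1.52 before and 1.57 and 1.74 after hypoxia. LDHA thereby made up 79.9% and 82.4% of the summed LDHA and LDHB level in the WT hypoxia libraries and 55.1% to 63.5% in the others. These ratios are given as a description.

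**Figure D2:**
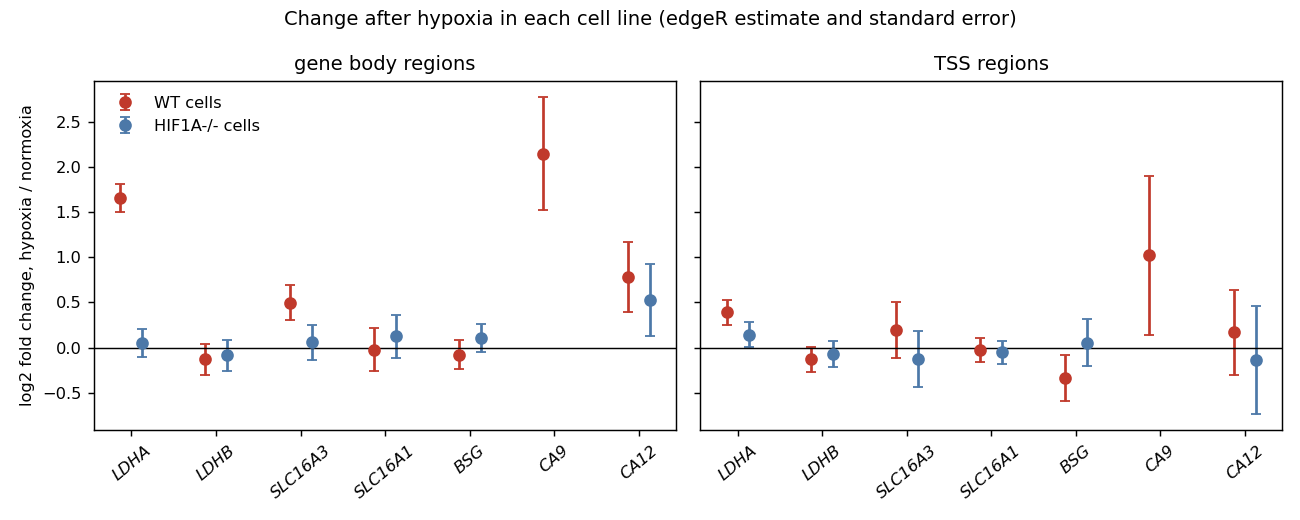
Log2 fold change of hypoxia over normoxia (edgeR estimate, bars are standard errors) in gene bodies and in TSS regions, for WT cells in red and HIF1A-/- cells in blue. The LDHA body stands at 1.66 in WT and 0.05 in HIF1A-/- cells, and at the TSS no gene was called. CA9 is drawn for WT cells alone because its HIF1A-/- counts were at most 2 reads a library.

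Of the transporters, SLC16A3 leaned upward in WT hypoxia and SLC16A1 did not. SLC16A3 had 52.6 and 44.6 CPM in WT normoxia and 77.7 and 62.7 CPM in WT hypoxia, and the groups did not overlap. Its HIF1A-/- libraries had 58.5 and 50.6 CPM in normoxia and 62.4 and 54.4 CPM in hypoxia. In CPM all lay below both WT hypoxia libraries, but narrowly, at 62.4 against 62.7. CPM is scaled to the library total alone. With the TMM normalization factors of the tests, 0.982 for HIF1A-/- hypoxia replicate 1 and 1.02 for WT hypoxia replicate 2, that order is not kept. The WT fold change of 0.50 ± 0.196 (log2) missed the threshold in the edgeR fit without pairing (adjusted p = 0.897), and passed it when replicate numbers were paired (0.50, adjusted p = 0.0300). The corresponding change in HIF1A-/- cells was 0.06 ± 0.195 (adjusted p = 1), and the difference between the genotypes in the response, 0.44 ± 0.276, was called in neither fit (adjusted p = 1 without pairing and 0.574 with it). In hypoxia SLC16A3 was at -0.27 in HIF1A-/- relative to WT cells, with an adjusted p of 0.548, or 0.0624 with the pairing.

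SLC16A1 (GRCh37 chr1:113454468-113497684, minus strand) had 102 and 106 CPM in WT normoxia and 109 and 100 CPM in WT hypoxia, and the groups overlapped. In HIF1A-/- cells it had 92.6 and 68.2 CPM in normoxia and 106 and 74.6 CPM in hypoxia, so the spread between replicates was wider than any shift with oxygen. The WT change was -0.02 ± 0.235 on the log2 scale (edgeR adjusted p = 0.987). Per length, SLC16A3 exceeded SLC16A1 in every library, by 6.66 to 8.20 times in WT normoxia, by 9.91 and 11.3 times in WT hypoxia and by 9.35 to 11.8 times in HIF1A-/- cells, where the SLC16A3 value rests on the short 3′ part described above.

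BSG, the shared partner of both carriers (GRCh37 chr19:573454-583493, plus strand), had 65.0 and 71.3 CPM in WT normoxia and 69.9 and 61.8 CPM in WT hypoxia. Its HIF1A-/- libraries held 79.0 and 70.2 CPM in normoxia and 86.6 and 78.6 CPM in hypoxia. The oxygen groups overlapped in both genotypes, with a WT change of -0.08 ± 0.158 on the log2 scale (edgeR adjusted p = 0.927). Both hypoxic HIF1A-/- libraries lay above both hypoxic WT libraries, a difference of 0.32 ± 0.158 that was called with paired replicates (adjusted p = 0.0805) and not without (adjusted p = 0.384). HCN2 is the next gene downstream of BSG on the same strand, with 6348 bp between their counted regions. It was higher in HIF1A-/- cells by 1.71 ± 0.301 in normoxia and 1.80 ± 0.298 in hypoxia on the log2 scale (adjusted p = 0.0434 and 0.0241).

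The 2 carbonic anhydrases were transcribed at the low end of the range, and both were lowest in HIF1A-/- cells. CA9 (GRCh37 chr9:35674915-35681156, plus strand) had 4 and 6 reads in the normoxic and 23 and 28 reads in the hypoxic WT libraries. The HIF1A-/- libraries held 1 and 0 reads in normoxia and 2 and 1 reads in hypoxia. It passed the filter of 0.5 CPM through the 2 WT hypoxia libraries only, so that comparisons with that group are given as a description. The WT change was 2.15 ± 0.629 on the log2 scale, not called without pairing (edgeR adjusted p = 0.705). With pairing it was called (edgeR adjusted p = 0.0722), a call not counted as support. In hypoxia the WT level of CA9 was 8.11 times a floor of 3 reads per HIF1A-/- library, a description and not a firm bound. In normoxia the WT level was 1.88 times that floor. With 4 and 6 WT reads this is not a firm bound either, and the genotype difference in normoxia was not called (edgeR adjusted p = 0.325). No change with hypoxia can be given for HIF1A-/- cells, since both of their groups lay under the floor.

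CA12 (GRCh37 chr15:63613576-63673364, minus strand) had 6.52 and 7.83 CPM in WT normoxia and 13.2 and 11.9 CPM in WT hypoxia. It had 1.91 and 4.54 CPM in HIF1A-/- normoxia and 3.44 and 6.07 CPM in HIF1A-/- hypoxia. Every HIF1A-/- library lay below every WT library, and in both genotypes the hypoxia mean was the higher one. The log2 change with hypoxia was 0.78 ± 0.386 in WT cells (edgeR adjusted p = 0.897) and 0.53 ± 0.403 in HIF1A-/- cells (adjusted p = 1), neither of which was called with pairing (adjusted p = 0.162 and 0.641). The estimate in HIF1A-/- cells ran from 0.06 without normoxia replicate 1 to 1.23 without normoxia replicate 2. In normoxia the genotype difference of CA12 was -1.17 ± 0.402 (adjusted p = 0.368, and 0.0553 with the pairing), and it was -0.68 without HIF1A-/- normoxia replicate 1 and -1.84 without replicate 2. In hypoxia it was -1.42 ± 0.394 (adjusted p = 0.128, and 0.0116 with the pairing). DESeq2, without pairing, also called it (-1.42, adjusted p = 0.0177), with 7.86% of all bodies called, and 4 of 13 alternatives did so in all. Of all gene bodies, 1.78% were called between the genotypes in normoxia and 4.26% in hypoxia, rising to 10.3% and 28.2% with pairing, so a genotype call is far less rare here than a call for WT hypoxia.

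At the start sites most of the 7 genes moved little, and CA9 and CA12 had few reads and wide errors. None of the 7 was called at the TSS for hypoxia in either genotype, with or without pairing. Of the 15212 TSS regions, 0.046% were called in WT cells without pairing and 1.01% with it, and 0% and 0.00657% in HIF1A-/- cells. None of the 7 was called for the difference between these responses either, where the shares were 0.00657% and 0.046%. LDHA had 332 and 351 TSS CPM in normoxic and 442 and 435 CPM in hypoxic WT cells. In HIF1A-/- cells it had 272 and 327 CPM in normoxia and 332 and 334 CPM in hypoxia. The WT hypoxia libraries were again the highest, but the step of 0.39 ± 0.138 on the log2 scale was small beside that of the gene body and was not called (edgeR adjusted p = 0.922, and 0.186 with pairing). LDHB, SLC16A1, SLC16A3, BSG and CA12 shifted by -0.34 to 0.20 on the log2 scale in WT cells and by -0.14 to 0.06 in HIF1A-/- cells. For CA12 the SE was 0.471 in WT and 0.598 in HIF1A-/- cells. CA9 had 1 and 5 TSS reads in WT normoxia and 8 and 8 in WT hypoxia, and at most 1 in any HIF1A-/- library. Its WT change was 1.02 ± 0.880 on the log2 scale (edgeR adjusted p = 0.922).

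Between genotypes, the paired fit called 3 TSS differences and the unpaired fit none. In hypoxia CA12 was lower in HIF1A-/- cells by 1.62 on the log2 scale (SE 0.466, adjusted p = 0.0272), with 35 and 58 reads in the WT libraries and 6 and 15 in the HIF1A-/- libraries. LDHA was lower there by 0.42 (SE 0.123, adjusted p = 0.0329), and in normoxia the SLC16A3 TSS was higher in HIF1A-/- cells by 0.54 ± 0.153 (adjusted p = 0.0581). Without pairing the same 3 differences had adjusted p-values of 0.228, 0.235 and 0.680. The share of all TSS regions called was 0.657% in normoxia and 1.1% in hypoxia without pairing, and 4.29% and 14.4% with it.

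The pausing index, here the TSS density over the gene body density with each density scaled to its own table's total, expresses how much polymerase sits near the start relative to the body. That of LDHA, whose counted body takes in its start number 2, fell in WT hypoxia. It was 48.8 and 52.4 in WT normoxia against 21.7 and 18.7 after hypoxia. The HIF1A-/- cells had 37.7 and 51.7 before and 43.4 and 49.2 after hypoxia. LDHA thus moved from near the median of 14494 genes, which was 44.4 to 49.1 in the 8 libraries to well below it in both WT hypoxia libraries. The change was -1.30 ± 0.230 on the log2 scale (edgeR adjusted p = 0.0368), where 0.193% of genes were called. It was 0.08 ± 0.231 in HIF1A-/- cells (adjusted p = 1), and the difference between the genotypes of -1.39 ± 0.326 was called with paired replicates (adjusted p = 0.0434) and not without (adjusted p = 0.576). With pairing 0.545% of genes were called in WT cells, and for the difference 0.0207% were called without and 0.145% with it. For HIF1A-/- cells 0% were called in either fit. The WT call was lost when any one WT library was left out, at adjusted p-values of 0.271 and 0.264 without normoxia replicate 1 or 2 and 0.137 and 0.716 without hypoxia replicate 1 or 2, while the change stayed between -1.41 and -1.21.

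**Figure D3:**
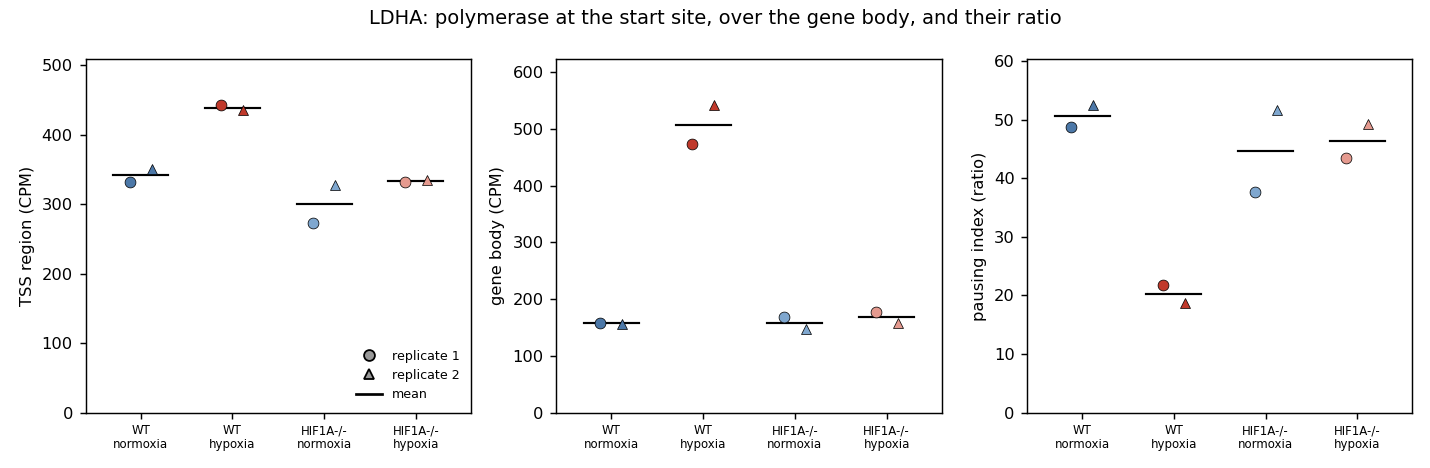
LDHA in each library as TSS region CPM, gene body CPM and pausing index (a ratio with no unit), with circles for replicate 1, triangles for replicate 2 and a bar for the mean. From WT normoxia to WT hypoxia the body goes from 158 and 156 to 474 and 541 CPM and the TSS from 332 and 351 to 442 and 435 CPM, and the pausing index of 18.7 and 21.7 in WT hypoxia lies below every other library.

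The other genes differed in pausing index more than hypoxia moved any of them. SLC16A1 was the most paused, with an index of 249 to 384 over the 8 libraries, and CA12 followed at 60.4 to 154. LDHB lay between 32.7 and 47.6, BSG between 10.9 and 19.9, and SLC16A3, measured at its last start, between 4.76 and 10.7. The changes of these 5 genes in WT hypoxia lay between -0.65 and -0.03 on the log2 scale, and none was called (edgeR adjusted p-values from 0.857 to 0.988). CA9 had too few reads for its index to be read.

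The rest of the pathway held no call like that of LDHA. The comparison lists held 76 further genes of lactate and pyruvate handling, the SLC16 family, the carbonic anhydrases, the acid and bicarbonate transporters and the vacuolar proton pump (V-ATPase), of which 58 passed the filter. In WT hypoxia none of the 58 was called without pairing and 1 was called lower with it, and their median log2 change was 0.04 beside -0.02 over all bodies tested. Their single changes ran from -0.52 to 1.19, so a lack of calls is not a lack of change in each gene. The gene called lower was SLC4A3, a chloride and bicarbonate exchanger (-0.54, edgeR adjusted p = 0.0838 with pairing). The 21 V-ATPase subunits tested, which acidify lysosomes and in some cells the surroundings, had a median of -0.16 and none called. The 9 other SLC16 genes tested had a median of 0.19, the 8 other carbonic anhydrases 0.13, the 14 acid and bicarbonate transporters 0.05 and the 6 genes of lactate and pyruvate handling 0.04. The gene with the highest level per length in WT normoxia in each list was ATP6V0B at 8.79 RPKM, SLC16A5 at 5.92, SLC4A2 at 5.82, CA11 at 2.51 and MPC2, a subunit of the mitochondrial pyruvate carrier, at 2.15 RPKM. Their log2 changes in WT hypoxia were -0.29, 0.14, -0.28, 0.18 and 0.24, and none was called.

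Most of the genes tested for the steps of glycolysis that lead to pyruvate rose in WT hypoxia. Of 13 genes for enzymes from GPI to PKM, 12 were tested. In WT hypoxia 7 of these were called higher, beside 0.431% of all bodies in either direction, and 10 with pairing, beside 5.51%, at a median log2 change of 1.33. GPI changed by 2.31, PGK1 by 1.83, ALDOC by 1.78, ENO2 by 1.70, ALDOA by 1.43, PGAM1 by 1.37 and PKM by 0.90 on the log2 scale (adjusted p-values from 0.017 to 0.0496). None of the 12 was called in HIF1A-/- hypoxia, in which no gene body at all was called by edgeR without pairing, 175 higher and 172 lower bodies had an unadjusted p under 0.05, and DESeq2 called 8 (0.0479%). In HIF1A-/- relative to WT cells in hypoxia, 9 of the 12 were called lower, beside 4.26% of all bodies in either direction.

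**Figure D4:**
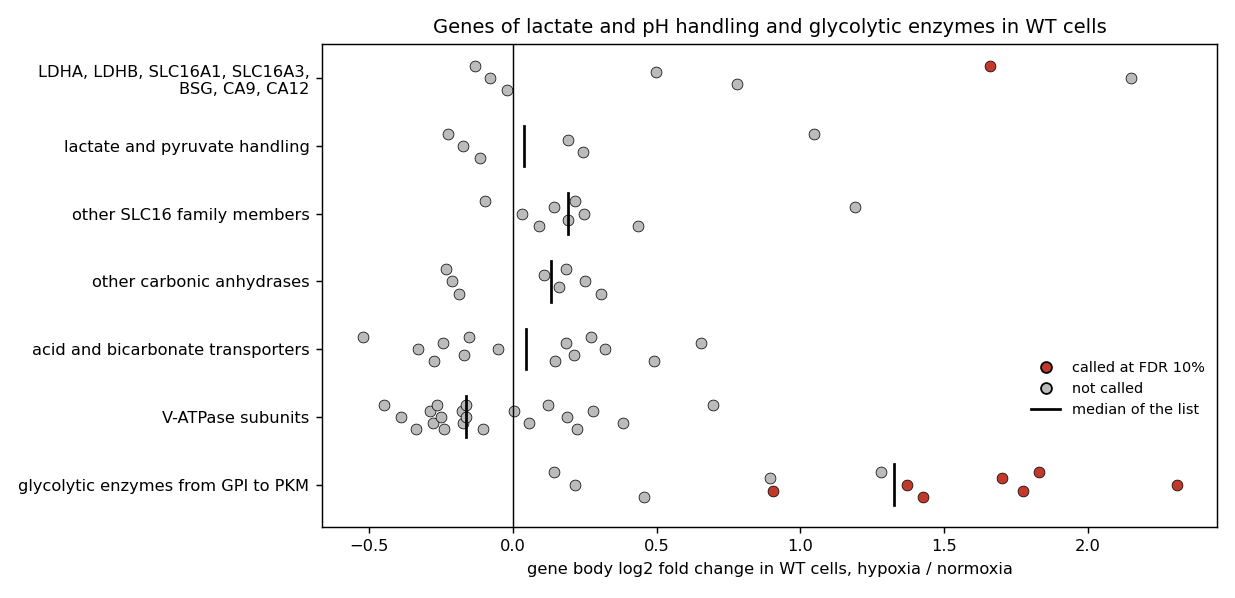
Gene body log2 fold change of hypoxia over normoxia in WT cells for each tested gene (points, red where called at an FDR of 10% without pairing) with the median of each comparison list as a bar. LDHA at 1.66 is the single red point of the first row, the 5 pathway lists hold none, and 7 of 12 glycolytic enzymes are red.

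Some pathway genes instead differed between the genotypes at both oxygen levels. SLC16A7, which encodes the pyruvate and lactate carrier MCT2, had 28.1 and 29.1 CPM in WT normoxia and 32.0 and 34.8 CPM in WT hypoxia, against 14.7 and 18.1 CPM and 17.1 and 17.9 CPM in HIF1A-/- cells. It was lower in HIF1A-/- cells by 0.81 in normoxia and 0.94 in hypoxia on the log2 scale (edgeR adjusted p = 0.0539 and 0.0218). SLC16A10, an aromatic amino acid carrier of the same family, was lower by 0.76 and 0.90 (adjusted p = 0.093 and 0.0313). MPC1, which encodes the partner of MPC2, was lower by 0.81 in normoxia (adjusted p = 0.099), and at -0.70 in hypoxia it narrowly missed the threshold. SLC4A7, a sodium bicarbonate importer, went the other way, with 181 and 201 CPM in WT normoxia and 398 and 340 CPM in HIF1A-/- normoxia. SLC4A7 was higher in HIF1A-/- cells by 0.96 in normoxia and 0.88 in hypoxia (adjusted p = 0.0387 and 0.0353), and SLC4A2, a chloride and bicarbonate exchanger, by 1.08 in hypoxia (adjusted p = 0.0977). In hypoxia 2 of the 58 tested genes were called higher and 2 lower in HIF1A-/- cells (13 and 9 with pairing), and in normoxia 1 was called higher and 3 lower (5 and 9 with pairing), to be read against the shares of all bodies given above. At the TSS, 49 pathway genes were tested and CA8, a carbonic anhydrase relative without catalytic activity, was the only one called without pairing, higher in HIF1A-/- cells by 1.06 in normoxia and 1.10 in hypoxia (adjusted p = 0.0811 and 0.0471).

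Genes next to the members were read to see whether a change ran past a gene's borders. LDHC, the testis form of lactate dehydrogenase, lies downstream of LDHA on the same strand, with 4036 bp between their counted regions. Its body held 23 and 14 reads in WT normoxia and 40 and 45 in WT hypoxia, against 18 and 46 and then 32 and 57 in HIF1A-/- cells. The groups overlapped across genotypes, and the WT difference of 1.05 ± 0.536 on the log2 scale was not called (edgeR adjusted p = 0.897). GTF2H1, upstream of LDHA, changed by 0.02, and ARHGEF39 and TPM2, on either side of CA9, by -0.02 and -0.10. SLC16A1-AS1, whose counted region lies 250 bp from that of SLC16A1 on the other strand, changed by 0.04. CSNK1D, 3160 bp beyond the end of SLC16A3 on the other strand, changed by -0.05. None of these was called.

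Over the 8 libraries, the gene bodies whose log2 CPM followed that of LDHA most closely were BNIP3 (Pearson's r = 0.994), YEATS2 (0.992) and ALDOC (0.991). For CA12 they were TRIM2 (0.993), SUSD4 (0.991) and TMEM9 (0.990), and for CA9, with its few reads, F12 (0.984), RCOR2 (0.983) and MTR (0.981). These correlations describe libraries that share groups and replicate numbers. BNIP3, a mitochondrial protein of the hypoxic programme, changed by 2.66 ± 0.230 in WT hypoxia on the log2 scale (adjusted p = 0.00633). ALDOC is an aldolase and also belongs to the glycolytic list above.

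Depth and identity bear on all of these values. Gene body totals ran from 18125234 to 23622392 reads per library and TSS totals from 2783581 to 5966348, with the 2 lowest TSS totals in replicate 1 of the 2 HIF1A-/- groups. HIF1A itself had 129 to 164 CPM over its body in WT and 141 to 172 CPM in HIF1A-/- libraries, and as its counted body reaches far beyond the disrupted exons this does not check the labels. Of 6 epithelial markers, EPCAM, CDH1, KRT8, KRT18 and KRT19 held 916 to 10501 gene body reads in each library and VIL1 held 0 to 15. Of 6 markers of other cell types, PTPRC, CD3E and PECAM1 held at most 10 reads and COL3A1 at most 49, whereas COL1A1 held 417 to 1188 and VWF 172 to 619.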

How the data were processed

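PRO-seq libraries of HCT116 WT and HIF1A-/- cells, 2 per group and 8 in all, were grouped by genotype, oxygen and replicate number from the sample labels. The deposited values are raw counts per gene, which the authors made from strand-specific reads aligned to GRCh37 with HISAT2 2.1.0, kept at a mapping quality above 10 with SAMtools 1.5 and counted with featureCounts (Subread 1.6.2), according to the methods and the submitters' processing notes. Each gene was counted in 1 TSS region (50 bp before to 500 bp after the start, 551 bp) and 1 gene body region from 1001 bp onward, so a gene with several starts is represented by one of them.

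Genes with over 0.5 CPM in at least 2 libraries were kept, TMM-normalized and tested with edgeR 4.0.16 (glmQLFit, glmQLFTest) in R 4.3.3, as 4 group means over all 8 libraries. P-values took Benjamini-Hochberg adjustment across every tested gene, with calls made at 10% FDR. Pausing indices were tested on TSS and gene body counts together, with a term per library. RPKM used each table's own total. Alternatives were a replicate block, library totals, no filter, 1 CPM, DESeq2 1.42.0 and leaving out each library. The edgeR fits with and without the block, DESeq2 and the pausing index fit without it were tried on simulated counts. These held set changes in WT hypoxia alone and no replicate effect, and the other contrasts and steps were not tried on simulated data. Same-numbered libraries deviated together in all 6 pairs of groups (correlation across genes 0.484 to 0.790 for gene bodies, 0.216 to 0.519 for TSS regions), so the numbers were taken to pair the samples, although no source names a shared day or batch, and paired values stand beside results whose call they change. Where a group had 3 reads or fewer in every library, folds are taken against 3 reads per library. Totals (18125234 to 23622392 body reads, 2783581 to 5966348 TSS reads) set the precision. Such floors set a fixed value for the lower group and leave out the counting error of the other. Folds taken against them are therefore not firm bounds.

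The 7 genes and all comparison lists were chosen with earlier results of these data known. Named genes are the 7, HIF1A, list genes called in the fit with or without pairing or highest per length, the nearest gene on each side, and the 3 gene bodies most correlated with a member, given where that member varied most. Strand-separated coverage tracks were not used here.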

Additional observations from a re-analysis of the deposited data

Results flagged for a closer look

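Both flagged results concern LDHA and a response to hypoxia that differed between WT and HIF1A-/- cells when the difference itself was tested with paired replicates. Over the gene body, the WT response exceeded that of HIF1A-/- cells by 1.62 on the log2 scale (edgeR with replicate block, adjusted p = 0.0101), and both WT hypoxia libraries lay above all other libraries. For the pausing index the difference was -1.39 (adjusted p = 0.0434), with both WT hypoxia libraries below all others. Neither difference was called without the pairing (adjusted p = 0.119 and 0.576).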

How the results depend on the processing

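All values below count members called at an FDR of 10% or are log2 fold changes. With the replicate block, the calls went from 1 to 3 for gene bodies in WT hypoxia, from 0 to 1 for their interaction, from 0 to 1 and from 2 to 5 for genotype in normoxia and in hypoxia, from 0 to 1 and from 0 to 2 for TSS genotype in normoxia and in hypoxia, and from 0 to 1 for the pausing index interaction. Without CA9, which passed the filter through the WT hypoxia libraries only, gene body calls went from 1 to 2 in WT hypoxia and from 1 to 4 for genotype in hypoxia. The block raised the calls over all genes as well. For bodies the share went from 0.431% to 5.51% in WT hypoxia and from 0.0539% to 0.384% for the interaction. Between genotypes it went from 1.78% to 10.3% in normoxia and from 4.26% to 28.2% in hypoxia. For TSS regions these shares went from 0.657% to 4.29% and from 1.1% to 14.4%, and for the pausing index interaction from 0.0207% to 0.145%. The gene body interaction also gave 1 call, LDHA, with library totals (adjusted p = 0.0767), no low count filter (0.0408) and DESeq2 (9.97e-08), and TSS genotype in hypoxia gave 1 with no low count filter. Leaving out 1 library gave 0 to 1 calls for gene bodies in WT hypoxia, 0 to 1 for the interaction, 1 to 3 for genotype in hypoxia, 0 to 1 for TSS genotype in hypoxia and 0 to 1 for the pausing index in WT hypoxia. DESeq2 gave CA9 no adjusted p for genotype in hypoxia, and without either WT hypoxia library CA9 failed the filter.

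Signs turned only for changes that were not called. SLC16A1 in WT hypoxia was 0.0078 with library totals, and without 1 library it ran from -0.090 to 0.054 and BSG from -0.18 to 0.025. In HIF1A-/- hypoxia LDHB ran from -0.29 to 0.10, LDHA from -0.077 to 0.19, SLC16A1 from -0.18 to 0.41, SLC16A3 from -0.078 to 0.21 and BSG from -0.014 to 0.24. The interaction ran from -0.22 to 0.17 for LDHB, from -0.43 to 0.18 for SLC16A1 and from -0.44 to 0.73 for CA12. LDHA for genotype in normoxia ran from -0.11 to 0.16 and SLC16A1 for genotype in hypoxia from -0.53 to 0.040. The causes were not tested. CA9 and CA12 are limited by depth, with at most 28 gene body reads a library for CA9.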
